A study of Mus musculus with 4 samples.

Results

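The genes described here are 10 genes of splenic macrophages, taken by symbol from the 28585 genes listed for each library of sorted neonatal spleen cells. They comprise the genes of the complement C1q chains (*C1qa*, *C1qb* and *C1qc*), macrophage receptors (*Csf1r* and *Adgre1*), an adhesion molecule (*Vcam1*), a secreted scavenger protein (*Cd5l*), iron and heme handling genes (*Slc40a1* and *Hmox1*) and a transcription factor gene (*Spic*). The cells were polymorphonuclear myeloid-derived suppressor cells (PMN-MDSCs), immature neutrophil-like cells that restrain T cells, isolated from spleens of mouse pups on postnatal day 7 at 300000 cells per library. Bulk RNA sequencing gave 2 libraries labelled Dhps cko and 2 labelled Dhps flox. Dhps flox pups were Dhps fl/fl, with both copies of *Dhps* flanked by recombination sites. Dhps cko pups were Dhps fl/fl Lysm cre, carrying in addition a Cre recombinase driven from the lysozyme M (*Lyz2*) locus. *Dhps* encodes deoxyhypusine synthase, which modifies the translation factor eIF5A. Lysm cre is active in macrophages as well as in neutrophils, so the genotype is not particular to the sorted cell type. The sort kept cells that were CD11b+, Ly6G+ and low or negative for Ly6C. How many pups went into a library is not given in the sources used here, so the spread between libraries of a group may be technical in part.

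Red pulp macrophages of the spleen engulf aged red blood cells, break down their heme and return the iron to the blood. They depend on the transcription factor SPI-C, are identified by F4/80 (encoded by *Adgre1*) and VCAM1, and use heme oxygenase 1 and the iron exporter ferroportin (encoded by *Slc40a1*) to process and release iron. C1q is the recognition subunit of the classical complement pathway. It is assembled from A, B and C chains, binds antibody complexes and dying cells, and is made mainly by macrophages and related phagocytes rather than by hepatocytes. *Hmox1* is not restricted to macrophages, since many cell types transcribe it under oxidative stress.

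The C1q genes sit side by side on chromosome 4 of GRCm38, from 136880129 to 136898803, and are transcribed from the minus strand within 18675 bases. Within this span *C1qb* (ENSMUSG00000036905) runs from 136880129 to 136886187, *C1qc* (ENSMUSG00000036896) from 136889804 to 136893065 and *C1qa* (ENSMUSG00000036887) from 136895917 to 136898803. None of their exon bases is shared with another annotated gene. RefSeq promoter sequences on build GRCm38.p6 were found for 4 of the 10 genes, and those of *C1qb* and *C1qc* are shown with that of *Cd5l*, on the plus strand of chromosome 3, as a macrophage gene whose groups overlapped. Each is printed 5′ to 3′ from the bases before the transcription start, without bases that the GENCODE annotation places in an exon, which leaves 99 of the 250 bases for *C1qc*. Capitals mark the PU-box core GAGGAA, part of the site that PU.1 and the related factor SPI-C bind, on either strand (TTCCTC on the strand shown).
C1qb, chr4:136886201-136886450, minus strand: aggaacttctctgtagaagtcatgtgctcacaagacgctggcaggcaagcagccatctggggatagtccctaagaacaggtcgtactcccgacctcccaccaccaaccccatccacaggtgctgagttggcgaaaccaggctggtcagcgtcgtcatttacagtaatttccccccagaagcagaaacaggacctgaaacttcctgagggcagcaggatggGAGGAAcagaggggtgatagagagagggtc
C1qc, chr4:136893066-136893164, minus strand: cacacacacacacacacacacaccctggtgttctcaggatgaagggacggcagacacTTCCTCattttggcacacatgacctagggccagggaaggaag
Cd5l, chr3:87357631-87357880, plus strand: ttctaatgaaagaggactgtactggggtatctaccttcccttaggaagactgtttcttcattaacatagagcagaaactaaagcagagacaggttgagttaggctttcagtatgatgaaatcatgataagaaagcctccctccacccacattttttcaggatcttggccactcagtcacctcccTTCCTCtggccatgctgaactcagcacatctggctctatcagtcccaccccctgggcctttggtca

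In the 250 bases before the RefSeq start, the core began at position -30 in *C1qb*, -193 in *C1qc* and -66 in *Cd5l*, counted from the start, and there was no match for *Spic*. These positions depend on the start used. The RefSeq start of *C1qc* lies inside the GENCODE gene, and the *Spic* window lies inside the GENCODE gene of *Spic*. Of 32851 promoter windows of the same length, 23.3% held the letters. A match is a description of the sequence only, and no match says only that these letters are not in the window.

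Expression was deposited as FPKM, fragment numbers scaled to transcript length and to the mapped reads of the library, so that levels can be compared between genes. The steps between low FPKM gave approximate depths between 29900000 and 32000000 mapped fragments per library. The targeted gene *Dhps* stood at 2.38 and 2.59 FPKM in Dhps cko against 3.57 and 3.11 FPKM in Dhps flox, so that its transcript was still detected in all 4 libraries, at 74.4% of the Dhps flox mean (limma adjusted p = 0.63). The value is for the whole gene, and which exons are flanked is not given in the sources used here. It therefore does not measure how much intact transcript remained. *Lyz2*, the gene that carries the Cre, was at 34.5% of the Dhps flox mean in Dhps cko. The neutrophil label was borne out by the defining markers: *Ngp*, *S100a9* and *S100a8* stood between 7165 and 28033 FPKM in every library. Of the sex-linked genes measured, *Xist* was higher in both Dhps cko libraries than in both Dhps flox libraries, and 4 Y-linked genes were lower. *Eif2s3y*, for example, averaged 4.71 FPKM in Dhps cko and 10.0 FPKM in Dhps flox. The part of this difference in the results was not tested.

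All 10 macrophage genes were detected in all 4 libraries, and at levels above most genes. *Hmox1* was the most abundant, between 61.8 and 74.0 FPKM, higher than 96.9% to 97.5% of the 17948 genes tested. *Slc40a1* followed, between 50.2 and 53.7 FPKM, and *Csf1r* was between 34.6 and 40.0 FPKM. These 3 genes held the same order in every library and their ranges did not touch. Next came *C1qb* (18.1 to 32.3 FPKM), *C1qa* (18.6 to 28.3 FPKM), *C1qc* (12.9 to 20.96 FPKM), *Vcam1* (16.04 to 20.5 FPKM) and *Adgre1* (13.2 to 16.7 FPKM). Their order varied between libraries, and the ranges of neighbours in it overlapped, whereas *Adgre1* stayed below the ranges of *C1qb* and *C1qa*. *Cd5l* ranged from 7 to 8.61 FPKM and *Spic* from 4.36 to 5.29 FPKM. *Spic*, the least abundant, still exceeded between 64.8% and 68.2% of the genes tested. Taking the longest annotated transcript, its level stands for about 299 to 372 fragments per library.

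**Figure D1:**
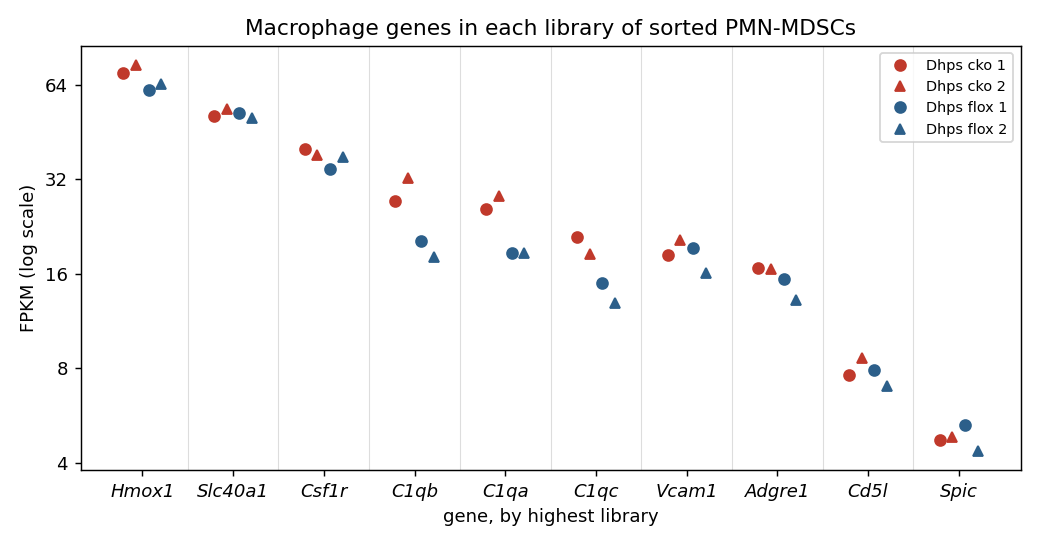
FPKM of the 10 macrophage genes (log scale) in each library, with Dhps cko in red, Dhps flox in blue, replicate 1 as circles and replicate 2 as triangles. For *C1qa*, *C1qb* and *C1qc* both red points lie above both blue points, whereas for *Slc40a1*, *Vcam1*, *Cd5l* and *Spic* the colors interleave.

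Set against the neutrophil surface marker gene *Ly6g*, which encodes the antigen used in the sort and averaged 232 FPKM in Dhps cko and 190 FPKM in Dhps flox, *Hmox1* was at 30.6% to 34.9% of the *Ly6g* FPKM of the same library, *Slc40a1* at 22.2% to 27.2% and *Spic* at 2.00% to 2.71%. *Ly6g* is among the lower of the 12 neutrophil markers measured. Against *Ngp*, the most abundant of them on the mean of the libraries, *Hmox1* was at 0.23% to 0.27% and *Spic* at 0.017% to 0.019%. The 10 genes together summed to 0.32% to 0.36% of the neutrophil marker sum. Whether these transcripts came from macrophages carried through the sort or from the neutrophils themselves was not tested, and in bulk samples fewer cells of a type and less RNA per cell cannot be told apart.

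All 3 C1q genes were higher in both Dhps cko libraries than in both Dhps flox libraries, by 1.42- to 1.55-fold, as were 20% of all genes tested by any amount, and none passed an adjusted p of 0.05. *C1qa* was at 25.7 and 28.3 FPKM in the first and second Dhps cko library, whereas the Dhps flox libraries had 18.6 and 18.7 FPKM. The means were 27.0 ± 1.8 FPKM (SD, n = 2) and 18.6 ± 0.035 FPKM (SD, n = 2), a ratio of 1.45. On the log2 scale the difference was 0.53 with a limma standard error of 0.07 and a Benjamini-Hochberg adjusted p = 0.38. The groups did not overlap, and the gap between them was wider than the difference between replicates.

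*C1qb* was at 27.3 and 32.3 FPKM in Dhps cko and at 20.3 and 18.1 FPKM in Dhps flox, 1.55-fold higher on the means. This difference of 0.63 on the log2 scale (limma standard error 0.11, adjusted p = 0.47) was the largest among the 10 genes. *C1qc* was at 20.96 and 18.5 FPKM in Dhps cko and at 14.9 and 12.9 FPKM in Dhps flox, 1.42-fold higher, or 0.50 on the log2 scale (limma standard error 0.11, adjusted p = 0.49). Neither gene overlapped between groups. Ordered by the limma p, *C1qa* stood at place 34, *C1qb* at place 83 and *C1qc* at place 190 of the 17948 genes tested. Over the 14 alternative analyses all 3 stayed higher in Dhps cko, with log2 fold changes of 0.46 to 0.60 for *C1qa*, 0.51 to 0.75 for *C1qb* and 0.40 to 0.61 for *C1qc*, and none passed the threshold in any of them.

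**Figure D2:**
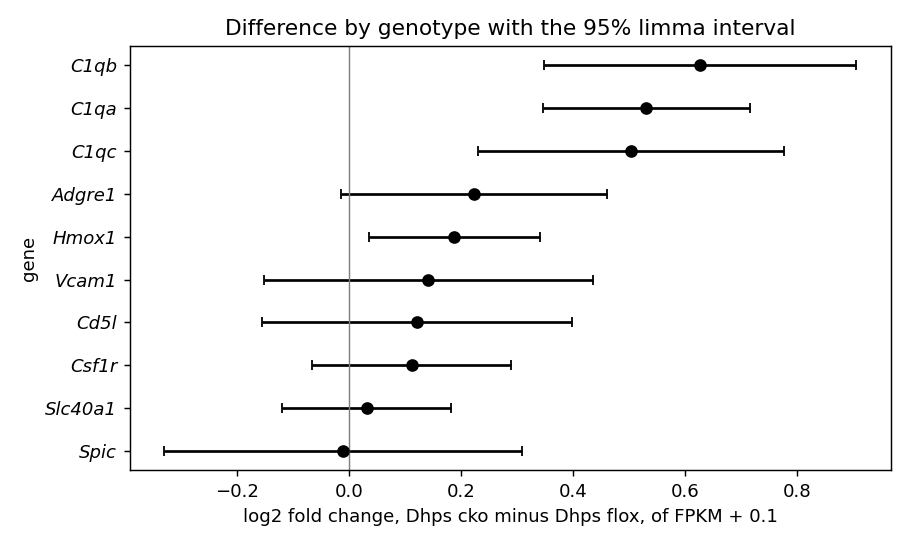
Log2 fold change of each macrophage gene, Dhps cko minus Dhps flox, on the log2(FPKM + 0.1) scale; points are limma estimates from 2 libraries per group and bars are 95% intervals. The C1q genes lie between 0.50 and 0.63, *Hmox1* at 0.19, and the intervals of the other 6 genes include 0.

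The ratios between the chains overlapped between genotypes. The ratio of *C1qa* to *C1qb* FPKM was between 0.88 and 1.03 over the 4 libraries, and that of *C1qc* to *C1qa* was between 0.65 and 0.81. That of *C1qc* to *C1qb* was 0.77 and 0.57 in Dhps cko and 0.74 and 0.71 in Dhps flox, so that the Dhps cko libraries differed from each other by more than the genotype means did. The ratio of C1q to the remaining macrophage genes did separate them. The mean FPKM of the 3 chains was 24.7 and 26.4 in Dhps cko and 17.9 and 16.6 in Dhps flox. Divided by *Slc40a1* of the same library, this was 0.48 and 0.49 in Dhps cko and 0.34 and 0.33 in Dhps flox. Divided by *Spic*, it was 5.24 and 5.46 in Dhps cko and 3.39 and 3.80 in Dhps flox. Against each of the 7 other genes, both Dhps cko ratios exceeded both Dhps flox ratios, by 1.27-fold on the means for *Adgre1* and up to 1.49-fold for *Spic*.

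**Figure D3:**
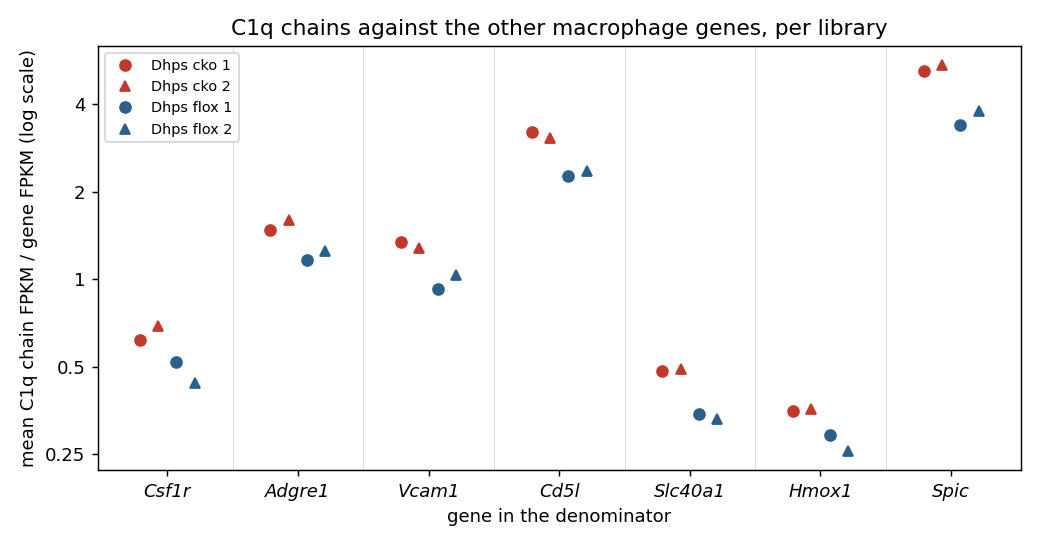
Mean FPKM of *C1qa*, *C1qb* and *C1qc* divided by the FPKM of each of the other 7 macrophage genes in the same library (log scale; red, Dhps cko; blue, Dhps flox; circles, replicate 1; triangles, replicate 2). For every denominator both red points lie above both blue points.

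Among the 7 other genes the ratios differed less between genotypes. Of their 21 pairs, 15 overlapped and 6 did not, and the largest difference was 1.18-fold, for *Adgre1* over *Spic*, below the smallest of the C1q ratios. *Hmox1* over *Slc40a1*, for example, was 1.37 and 1.38 in Dhps cko and 1.18 and 1.29 in Dhps flox, with no overlap. The ratio of *Vcam1* to *Cd5l* was between 2.29 and 2.44 in all 4 libraries, and that of *Slc40a1* to *Spic* was between 9.87 and 11.5. Taken relative to *Ly6g*, the C1q mean was 11.1% and 10.9% in Dhps cko and 9.21% and 8.96% in Dhps flox. The ratio to *Ly6g* was lower on the mean in Dhps cko for the 7 other genes, from 0.81 times the Dhps flox value for *Spic* to 0.96 times for *Adgre1*. *Ly6g* itself was 1.22-fold higher in Dhps cko (adjusted p = 0.53 from limma), the largest log2 fold change of the 12 neutrophil genes. The summed FPKM of the 7 other genes was 1.09-fold higher in Dhps cko, and that of the 12 neutrophil genes 1.05-fold. For the sum of the 7, the direction therefore depends on the neutrophil marker chosen.

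*Hmox1* (ENSMUSG00000005413; chromosome 8, 75093621 to 75100589), which encodes the enzyme that opens the heme ring, was at 70.0 and 74.0 FPKM in Dhps cko and at 61.8 and 64.6 FPKM in Dhps flox. The Dhps cko libraries were both above the Dhps flox libraries, by 1.14-fold on the means. The difference on the log2 scale was 0.19, with a 95% interval of 0.04 to 0.34 and a limma adjusted p = 0.63. *Slc40a1* (ENSMUSG00000025993; chromosome 1, 45908068 to 45926523), encoding the iron exporter, was at 51.0 and 53.7 FPKM in Dhps cko and at 52.2 and 50.2 FPKM in Dhps flox. The genotypes overlapped, and the log2 fold change was 0.03 with a 95% interval of -0.12 to 0.18.

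*Csf1r* and *Adgre1*, which encode the receptor for the growth factor CSF1 and the F4/80 surface protein, had smaller differences than C1q. *Csf1r* (ENSMUSG00000024621; chromosome 18, 61100598 to 61132149) was at 40.0 and 38.3 FPKM in Dhps cko and at 34.6 and 37.8 FPKM in Dhps flox. The groups did not overlap, but Dhps cko replicate 2 and Dhps flox replicate 2 lay close together, and the log2 fold change was 0.11 (95% interval -0.07 to 0.29, adjusted p = 0.80 from limma). With TPM scaling or quantile normalization, the *Csf1r* groups overlapped. Of its exon bases, 15.1% are shared with *Hmgxb3*, which was at 1.36 to 1.47 FPKM. *Adgre1* (ENSMUSG00000004730; chromosome 17, 57358691 to 57483527) was at 16.7 and 16.5 FPKM in Dhps cko and at 15.4 and 13.2 FPKM in Dhps flox. Its log2 fold change was 0.22 (95% interval -0.01 to 0.46, adjusted p = 0.74 from limma).

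*Vcam1*, *Cd5l* and *Spic* overlapped between genotypes, unlike *Adgre1* and *Hmox1*. *Vcam1* (ENSMUSG00000027962; chromosome 3, 116109949 to 116129688), an adhesion molecule that holds cells bearing the integrin VLA-4, was at 18.4 and 20.5 FPKM in Dhps cko and at 19.3 and 16.04 FPKM in Dhps flox. *Cd5l* (ENSMUSG00000015854; chromosome 3, 87357881 to 87371073), which encodes a secreted inhibitor of macrophage apoptosis, was at 7.64 and 8.61 FPKM in Dhps cko and at 7.92 and 7 FPKM in Dhps flox. *Spic* (ENSMUSG00000004359; chromosome 10, 88674772 to 88685015) was at 4.71 and 4.83 FPKM in Dhps cko and at 5.29 and 4.36 FPKM in Dhps flox. In each, the Dhps flox libraries differed by more than the genotype means did. The log2 fold changes were 0.14 for *Vcam1*, 0.12 for *Cd5l* and -0.01 for *Spic*, with 95% intervals of -0.15 to 0.44, -0.15 to 0.40 and -0.33 to 0.31, so that differences within these bounds were not distinguishable at this replication.

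Across the list, 0 of 10 genes had an adjusted p under 0.05 in limma, where 0.00557% of all genes tested did, which is 1 gene, the predicted gene *Gm20716*. An unadjusted p under 0.05 was found for 4 of the 10, *C1qa*, *C1qb*, *C1qc* and *Hmox1*, all higher in Dhps cko, as was found in that direction for 4.72% of all genes tested. With a library left out, limma takes the spread from the genotype that keeps 2 libraries, with 1 residual degree of freedom per gene, and the lone library is assumed to vary alike. This count was then 2, *C1qa* and *C1qb*, without Dhps cko replicate 1 (beside 2.30% of all genes) or without Dhps flox replicate 2 (5.27%), and 3 without Dhps cko replicate 2 (2.60%). Without Dhps flox replicate 1 it was 4 (5.25%), with *Adgre1* in place of *Hmox1*. With all libraries and TPM scaling (3.50%), without a variance trend (4.24%) or with the replicate block (4.01%) it was 3, since the limma unadjusted p of *Hmox1* was then 0.073, 0.14 and 0.057. Of all genes with such a p, 67.4% were higher in Dhps cko, and 56.4% with TPM scaling. Of the 10, 6 were higher in Dhps cko with no overlap between groups, beside the 20% of all genes, and *Slc40a1*, *Vcam1*, *Cd5l* and *Spic* overlapped. Of all genes that did not overlap, 55.5% were higher in Dhps cko, and 44.7% with TPM scaling. Without Dhps flox replicate 1 all 10 were higher with no overlap, beside 36.6% of all genes, and without Dhps cko replicate 1 it was 9, beside 32.3%, in comparisons of 1 library against 2. The median log2 fold change of the list was 0.16, beside 0.01 for all genes tested, with 9 of 10 genes above 0 compared with 52.2% of all genes. With 2 libraries in each group, the smallest two-sided p of an exact permutation test is 0.33.

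Of 19 other genes of heme and iron handling, 17 were tested and 0 were called by limma, 9 had a log2 fold change above 0 and 8 below, and the median was 0.01. With no overlap between groups, 7 of the 17 were higher in Dhps cko and 3 lower, beside 20% and 16.04% of all genes. At an unadjusted p under 0.05 there was 1 (beside 4.72% of all genes, higher), *Ftl1*, the ferritin light chain gene, at 381 and 372 FPKM in Dhps cko and at 336 and 308 FPKM in Dhps flox. *Fth1*, the ferritin heavy chain gene, averaged 146 FPKM in Dhps cko and 139 FPKM in Dhps flox, and *Pcbp1*, an iron chaperone gene, 78.3 and 78.5 FPKM. *Hamp*, encoding the ferroportin ligand hepcidin, was listed at 0 in all 4 libraries.

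The complement genes outside C1q covered a wide range of levels, with the receptor and C3 genes at the top. *Itgb2* and *Itgam*, which together encode complement receptor 3, averaged 583.7 and 573 FPKM in Dhps cko and 583.6 and 583 FPKM in Dhps flox. *C3*, the central component, averaged 493 and 538 FPKM. *C1ra*, *C1rb* and *C1s1*, genes of the proteases that join C1q to form the C1 complex, were between 0.24 and 3.07 FPKM in every library, far below the C1q chains, and were each lower on the mean in Dhps cko. *C1ra* was at 2.58 and 2.54 FPKM in Dhps cko and at 3.07 and 2.82 FPKM in Dhps flox. Of 18 complement genes tested, 0 were called by limma, and 1 had an unadjusted p under 0.05 (beside 4.72% of all genes, higher). This was *Cfp* (properdin), at 104 FPKM in Dhps cko and 90.2 FPKM in Dhps flox on the mean. Among the 18, 6 were higher in Dhps cko and 3 lower with no overlap between groups, beside 20% and 16.04% of all genes. The median log2 fold change was 0.04. 

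Around CSF1R, genes for the ligands *Csf1* and *Il34* were low, at 3.10 to 3.50 and at 0.06 to 0.17 FPKM. *Tyrobp*, the adaptor DAP12 of several myeloid receptors, was the most abundant of this list, at 426 and 425 FPKM in Dhps cko and at 376 and 350 FPKM in Dhps flox. *Spi1*, which encodes PU.1, averaged 153 and 144 FPKM and *Grb2*, a signalling adaptor gene, 82.8 and 79.3 FPKM. Of the 10 genes, 0 were called by limma, and the median log2 fold change was 0.06. With no overlap between groups, 3 were higher in Dhps cko and 2 lower, beside 20% and 16.04% of all genes. An unadjusted limma p under 0.05 was found for *Tyrobp*, higher in Dhps cko, beside 4.72% of all genes. It was also found for *Cbl*, lower in Dhps cko, beside 410 of the 17948 genes tested. Of the adhesion partners, *Itgb1* and *Itga4*, which encode VLA-4, the integrin bound by VCAM1, averaged 30.6 and 12.8 FPKM in Dhps cko and 32.2 and 13.1 FPKM in Dhps flox, and *Cd36*, a scavenger receptor gene, 5.56 and 5.77 FPKM. None of the 5 genes tested was called by limma, and the median log2 fold change was -0.03. An unadjusted limma p under 0.05 was found for 2, *Itgb7* and *Icam1*, both higher in Dhps cko, beside 4.72% of all genes. With no overlap between groups, these 2 were higher and *Itgb1* was lower, beside 20% and 16.04% of all genes.

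A further 14 genes of splenic macrophages were measured outside the list, of which 13 had a log2 fold change above 0. None was called by limma, 3 had an unadjusted p under 0.05 (*Marco*, *Cd68* and *Axl*, all higher, beside 4.72% of all genes), and the median log2 fold change was 0.18. In Dhps cko, 10 of the 14 were higher with no overlap, beside 20% of all genes, and *Mertk*, a receptor for dying cells, was lower with no overlap, beside 16.04% of all genes. The most abundant were *Sirpa*, an inhibitory receptor gene also used by neutrophils, at 133 and 129 FPKM on the mean, *Apoe*, at 49.5 and 44.5 FPKM, and *Cd68*, a lysosomal protein gene, at 43.5 and 35.6 FPKM. The largest difference was that of *Marco*, a scavenger receptor of marginal zone macrophages, named after its values were seen. It was at 15.6 and 16.2 FPKM in Dhps cko and at 9.42 and 9.12 FPKM in Dhps flox, or 0.77 on the log2 scale (limma standard error 0.07, adjusted p = 0.24).

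**Figure D4:**
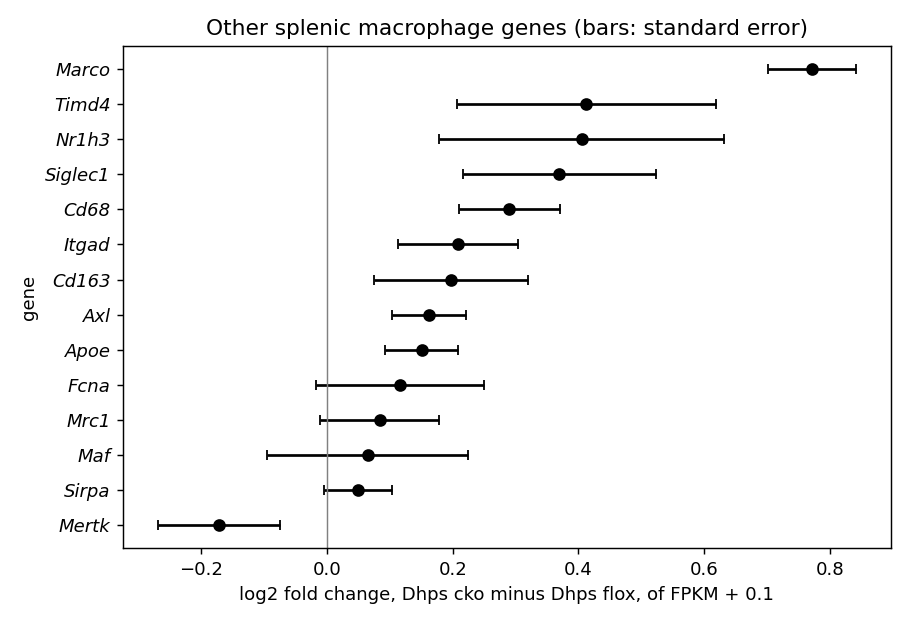
Log2 fold change of 14 other splenic macrophage genes, Dhps cko minus Dhps flox, on the log2(FPKM + 0.1) scale, with limma standard errors as bars (2 libraries per group). *Marco* lies at 0.77, apart from the others, and *Mertk* at -0.17 is the 1 gene below 0.

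Markers of other cell types that the sorted cells could hold were also measured. None was called, and the sums of several lists were higher in both Dhps cko libraries. The summed FPKM of 9 monocyte genes, of which *Ly6c2*, *Treml4* and *Nr4a1* were the most abundant, was 272 and 257 in Dhps cko and 226 and 234 in Dhps flox, 1.15-fold higher. *Treml4* is also a gene of splenic macrophages, and the sort excluded cells high in Ly6C. The 5 B cell genes, led by *Cd79b*, *Cd79a* and *Ms4a1*, summed to 21.3 and 21.7 FPKM in Dhps cko and to 12.5 and 16.9 FPKM in Dhps flox. The 7 T cell genes, led by *Trbc2*, *Cd3d* and *Cd4*, summed to 16.7 and 13.9 FPKM and to 11.2 and 7.51 FPKM. These 3 lists were therefore higher in both Dhps cko libraries, with ratios of the sums of 1.46 for B cell and 1.64 for T cell genes, beside 1.48 for the C1q mean. The T cell ratio rested largely on *Trbc2* (8.25 and 5.36 FPKM in Dhps cko, 3.57 and 1.51 FPKM in Dhps flox), and the other 6 genes summed to 8.46 and 8.52 FPKM and to 7.59 and 6 FPKM, 1.25-fold higher and still with no overlap. Of these 6, *Cd4*, *Lck* and *Cd3g* were higher in both Dhps cko libraries, and *Cd3d*, *Cd3e* and *Cd8a* overlapped. Without *Ly6c2* the monocyte sum was 1.09-fold higher, with Dhps cko replicate 2 at 73.5 FPKM and Dhps flox replicate 2 at 73.49 FPKM, and *Nr4a1* was lower in Dhps cko with no overlap. Sums without the gene of largest difference were taken after the values were seen. Their part in the C1q difference was not tested.

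The eosinophil genes (*Siglecf*, *Ccr3* and *Prg2* the most abundant of 4) summed to 10.4 to 11.8 FPKM in Dhps cko and 8.24 to 8.66 FPKM in Dhps flox, but without *Prg2* to 7.89 and 9.06 FPKM and to 7.26 and 8.16 FPKM, which overlapped. The dendritic cell genes (*Clec9a*, *Cd209a* and *Flt3* of 6) summed to 2.26 to 2.38 and 1.29 to 1.69 FPKM. Without the gene of largest difference, the dendritic cell, B cell and neutrophil sums still did not overlap, with ratios of 1.28, 1.39 and 1.04. The primary granule genes of early neutrophils (*Ms4a3*, *Elane* and *Mpo* of 5) overlapped, at 81.3 and 54.5 FPKM in Dhps cko and 46.3 and 56.5 FPKM in Dhps flox. So did the erythroid genes, the cargo of red pulp macrophages, with *Hbb-bs*, *Hba-a1* and *Hba-a2* the most abundant of 8, at 743 and 890 FPKM in Dhps cko and 618 and 924 FPKM in Dhps flox. The globin pairs are near-identical copies between which reads can be split. Stromal genes (*Col1a1*, *Col3a1* and *Col1a2* of 6), platelet genes (*Gp1ba*, *Pf4* and *Gp9* of 5) and endothelial genes (*Stab2*, *Tie1* and *Cdh5* of 5) overlapped too. Endothelial and stromal cells are other known sources of *Vcam1*. Of the 5 endothelial markers, *Stab2*, a gene of sinusoidal endothelium, was at 1.36 to 1.53 FPKM, and *Tie1*, *Cdh5*, *Kdr* and *Emcn* were between 0 and 0.15 FPKM in every library, and the stromal sum was between 21.8 and 30.6 FPKM. Among the 12 neutrophil genes, 11 had a log2 fold change above 0, with a median of 0.11, and the sum was higher in both Dhps cko libraries, with a ratio of 1.05. Of the genes tested on these 11 lists, neutrophil genes included, 0 were called by limma. An unadjusted limma p under 0.05, higher in Dhps cko, was found for 3 of 5 B cell and 3 of 9 monocyte genes. So it was for 2 of 7 T cell, 1 of 4 eosinophil and 1 of 12 neutrophil genes, beside 4.72% of all genes. Such a p with a lower level was found for 1 of 6 stromal genes, *Dcn*, beside 410 of the 17948 genes tested.

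**Figure D5:**
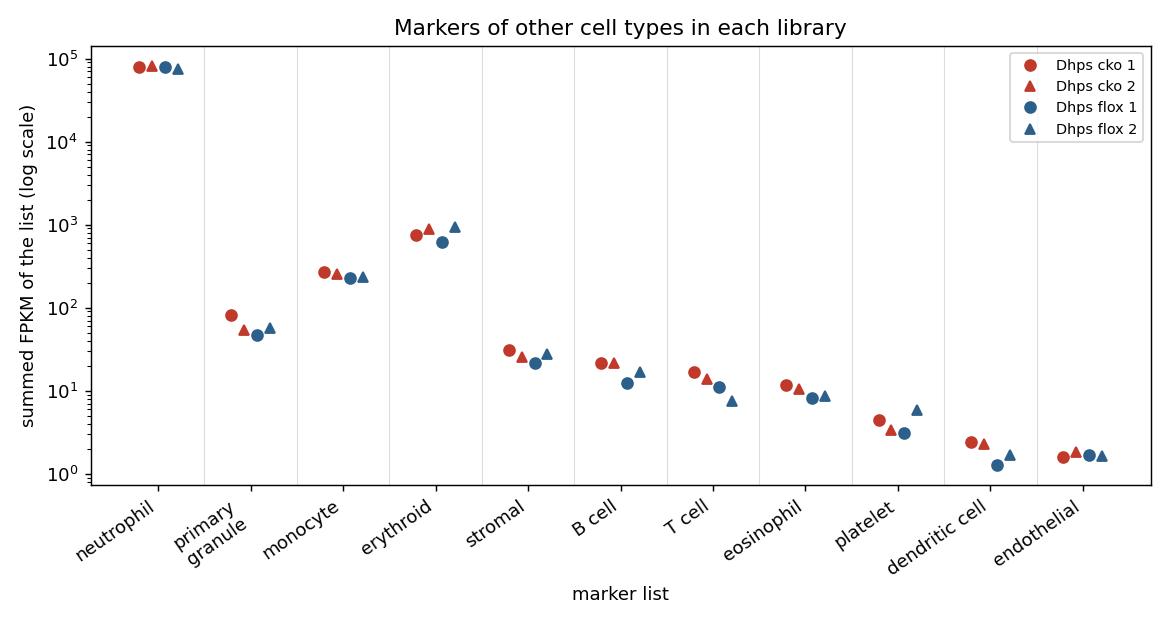
Summed FPKM (log scale) of 11 marker lists in each library, with Dhps cko in red, Dhps flox in blue, replicate 1 as circles and replicate 2 as triangles. Neutrophil markers sum to between 74475 and 81660 FPKM, far above the other lists, and the neutrophil, monocyte, B cell, T cell, eosinophil and dendritic cell sums are each higher in both Dhps cko libraries than in both Dhps flox libraries, the eosinophil sum through *Prg2*.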

How the data were processed

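Bulk RNA sequencing of PMN-MDSCs was analysed in 4 libraries, 2 per genotype as given by the sample labels. The authors filtered reads with Cutadapt v1.9, aligned them with HISAT2 v2.2.1 (mm10 per the labels' processing notes) and calculated the deposited FPKM per gene with StringTie v2.1.6 and ballgown, rounded to 2 decimals. The annotation, the strand setting and any scaling between libraries are not given in the sources used here. FPKM depend on the other transcripts of a library. Whole reads could not be recovered, so depths and fragments are approximate and no count test was run.

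From the FPKM, log2(FPKM + 0.1) was computed, keeping 17948 genes whose mean reached 0.1 FPKM, a scale that understates changes of low genes. The difference between genotypes was fitted by limma 3.58.1 under R 4.3.3 (lmFit, eBayes with a mean-variance trend, two-sided, Benjamini-Hochberg adjustment over all genes tested, threshold 0.05, no replicate block), checked on simulated data. Coordinates are from GENCODE M21 (GRCm38), which held 28511 of the gene identifiers, and promoters from RefSeq (GRCm38.p6). Python 3.11.15 with pandas 2.3.3 and matplotlib 3.10.9 served the other steps.

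The genes and lists were chosen with earlier results of these data known. Named were all 10 genes, the 3 most abundant genes of each list, genes called or at 0 in all libraries, *Dhps* and *Lyz2*, the 5 genes nearest to the C1q profile and the neighbours of the C1q cluster. The other genes (*Axl*, *Mertk*, *Marco*, *Cbl*, *Csf1*, *Il34*, *Itgb7*, *Icam1*, *Cfp*, *C1ra*, *C1rb*, *C1s1*, *Gm20716*, *Hmgxb3* and the sex-linked and single marker genes beyond this rule) were named after their values were seen. As alternatives, the pseudocount, the filter, the scaling and the variance model were varied, a replicate block was added, and each library was left out. Of the listed genes, *Cd209b* and *C1s2* were not analysed here, and 1 B cell marker is not reported here and was left out of its list.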

Additional observations from a re-analysis of the deposited data

How the results depend on the processing

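None of the 10 genes was called under any of the 14 alternatives, and *C1qa*, *C1qb*, *C1qc*, *Csf1r*, *Adgre1*, *Vcam1*, *Cd5l* and *Hmox1* stayed higher in Dhps cko in each, but with each library left out the log2 fold change ran from 0.0087 to 0.27 for *Vcam1*, 0.034 to 0.21 for *Cd5l*, 0.049 to 0.18 for *Csf1r* and 0.12 to 0.33 for *Adgre1*. The lowest was without Dhps flox replicate 1 for *Csf1r* and without Dhps flox replicate 2 for the other 3, and the highest without Dhps flox replicate 2 for *Csf1r* and without Dhps flox replicate 1 for the other 3. The log2 fold change of *Slc40a1*, 0.03 as reported, was -0.00024 with TPM scaling, -0.0040 with quantile normalization and from -0.0044 (without Dhps cko replicate 2) to 0.068 (without Dhps cko replicate 1) with each library left out. That of *Spic*, -0.01 as reported, was between -0.15 and 0.13 with each library left out, and above 0 without Dhps cko replicate 1 (0.0079) or Dhps flox replicate 1 (0.13). The median of the 10 genes ran from 0.15 to 0.24 with each library left out, the highest without Dhps flox replicate 1, and the count of non-overlapping genes from 6 to 10, while the share of all genes higher with no overlap ran from 32.3% to 37.1%, beside 20% with all libraries. The number of all genes called, 1 as reported, was 0 with a pseudocount of 0.01, 0 without a filter, 4 with a mean of at least 1 FPKM, 2 with TPM scaling, 2 with quantile normalization, 2 with robust eBayes, and 0 with each library left out. The cause was not tested, beyond the fewer samples in the last. With the replicate block it was 0, and the block changed no call among the 10 genes. Libraries with the same number did not deviate together (correlation -0.06 across 10629 genes). With 2 libraries per group, this cannot show whether libraries share a litter or a preparation. The paper describes the groups as littermates, and which libraries share a litter is not given in the sources used here. Other scalings moved the median of all genes by at most 0.03 on the log2 scale. With 2 libraries per group and no read counts, the smallest adjusted p of any of the 10 genes in any alternative was 0.14, for *C1qa* with a mean of at least 1 FPKM.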

Other observations

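The level profile most like that of C1q was found in genes of other kinds. Among 10619 other genes averaging 1 FPKM or more, the 5 with the smallest root mean square distance to the mean centered log2(FPKM + 0.1) of the C1q genes over the 4 libraries were *Rps12-ps4* (0.03), a ribosomal protein pseudogene, *Hebp1* (0.03), which encodes a heme-binding protein, *Cnp* (0.04), *Tmem223* (0.04) and *Gbp2* (0.04), an interferon-inducible GTPase gene. *Hebp1* was at 2.11 and 2.12 FPKM in Dhps cko and at 1.51 and 1.31 FPKM in Dhps flox (adjusted p = 0.57 from limma). *Gbp2* was at 2.43 and 2.36 FPKM in Dhps cko and at 1.69 and 1.56 FPKM in Dhps flox (adjusted p = 0.55 from limma). Of the 7 other genes of the list, *Adgre1* lay nearest, at 0.17, and *Spic* farthest, at 0.29, and of the 14 further splenic macrophage genes *Marco* lay nearest, at 0.11, and *Mertk* farthest, at 0.36. *C1qa*, *C1qb* and *C1qc* themselves lay 0.05, 0.07 and 0.095 from their mean, farther than the 5 genes named. With 10619 genes compared over 4 libraries, some are likely to lie near by number alone, so these distances are a description. Reads of *Rps12-ps4* can be shared with its parent gene.

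The genes next to the C1q cluster on chromosome 4 were low. *Ephb2*, 44141 bases before the cluster, was at 0.03 to 0.07 FPKM, below the level for testing, and *Zbtb40*, 80929 bases after it, was at 1.00 and 0.84 FPKM in Dhps cko and at 0.99 and 0.84 FPKM in Dhps flox, with a log2 fold change of 0.01.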
